A study of Arabidopsis thaliana with 30 samples.

Results

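The genes described here are the protein-coding genes of the Arabidopsis thaliana plastid genome, measured in developing seeds and seedlings. A probe set of the ATH1 chip, an Affymetrix microarray of short oligonucleotides, was taken where the platform annotation assigned it to 1 gene alone and the gene's locus tag began with ArthCp. This gave 69 genes, each with 1 probe set, among 13356 genes that were named singly on the chip. They run from psbA (ArthCp002) to rps15 (ArthCp081) along the plastid chromosome. A further 8 probe sets name several copies of 7 duplicated genes (rps12, rpl2, rpl23, ycf2, ndhB, rps7 and ycf1) and were left out. All 69 genes had a signal of at least 100 on at least 2 arrays, and 65 did so without the late lec1-1 seed arrays. The other 4, rps16, atpI, petG and ndhH, passed that filter only through late lec1-1 seed.

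The study followed seeds of the Ws-0 accession, either wild type or labelled lec1-1, a mutant allele of LEAFY COTYLEDON1. LEC1 encodes a subunit of the NF-Y transcription factor that is needed for embryo identity and seed maturation. Wild-type groups were seed 24 hours after fertilization, cotyledon-stage, mature green and post-mature green seed, and seedlings 3 days after imbibition. The lec1-1 groups were 24-hour, globular-stage, cotyledon-stage, mature green and post-mature green seed, so that globular seed was measured in lec1-1 alone and seedlings in wild type alone. Each of these 10 groups had 2 arrays, which the labels call biological replicates without naming the plants. The labels place the plants of 18 arrays in a growth chamber under continuous light and give no growth conditions for globular seed. All groups share the Ws-0 background, lec1-1 is a single allele, and the samples are whole seeds that hold embryo, endosperm and seed coat together. The LEC1 transcript was not analysed here, so the genotype labels were not checked against it.

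Plastids keep a small genome of their own, present in many copies per organelle. It encodes core subunits of both photosystems, of the cytochrome b6f complex, of ATP synthase and of the NADH dehydrogenase-like (NDH) complex, the large subunit of rubisco, part of the plastid ribosome, and 4 subunits of the plastid-encoded RNA polymerase. That polymerase works together with nuclear-encoded sigma factors and transcribes most photosynthesis genes, whereas a nuclear-encoded phage-type polymerase transcribes many housekeeping genes, rpoB and accD among them. Plastid genes lie in polycistronic runs whose RNAs are cut and trimmed after transcription. Arabidopsis embryos turn green during mid-development and lose chlorophyll as the seed matures, and the plastids differentiate again after germination. Plastid RNAs are mostly without stable poly(A) tails, and the labels do not state how the labelled RNA was primed.

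Across the series the median signal of an array was 176.8 to 217.4 and 58.5% to 66.4% of probe sets reached 100. Replicates of a group correlated at 0.933 to 0.982 over all tested probe sets and at 0.873 to 0.988 over the plastid genes. The plastid genes' replicate log2 differences had an SD of 0.793 in wild-type post-mature green seed and 0.624 in wild-type mature green seed, against 0.336 to 0.542 in the other groups. In lec1-1, replicate 2 was below replicate 1 by a median of 0.56 on the log2 scale in mature green and again in post-mature green seed. Storage-protein and oil-body markers went with the labelled stages. The summed signal of the 4 measured seed maturation markers of 10 listed was 155.8 to 183.5 in wild-type 24-hour seed and 164160 to 182380 in wild-type mature green seed. The labels state an array lot for all wild-type 24-hour, cotyledon and mature green arrays, for wild-type post-mature green replicate 1 and for lec1-1 24-hour replicate 1, and for no other array. At the cotyledon and mature green stages the lot statement and the genotype therefore cannot be told apart within a lot.

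Summed over the 69 genes, plastid transcripts took up a small share of the array signal that moved with stage and genotype. In wild type the share was 0.36% and 0.31% at 24 hours, 0.307% and 0.376% at the cotyledon stage, 0.459% and 0.638% in mature green seed, 0.232% and 0.165% in post-mature green seed and 0.838% and 0.887% in seedlings. In lec1-1 it was 0.321% and 0.378% at 24 hours, 0.151% and 0.149% at the globular stage, 0.219% and 0.328% at the cotyledon stage, 1.46% and 1.05% in mature green seed and 1.46% and 0.957% in post-mature green seed. Every late lec1-1 array thus lay above every wild-type array, seedlings included. The sum is weighted to bright probe sets, and without the 4 brightest the share was 0.917% and 0.654% in lec1-1 mature green seed, 0.816% and 0.571% in lec1-1 post-mature green seed and 0.519% and 0.539% in seedlings. In RNA from whole seeds, fewer plastids or fewer cells of a type cannot be told apart from less RNA in each.

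**Figure D1:**
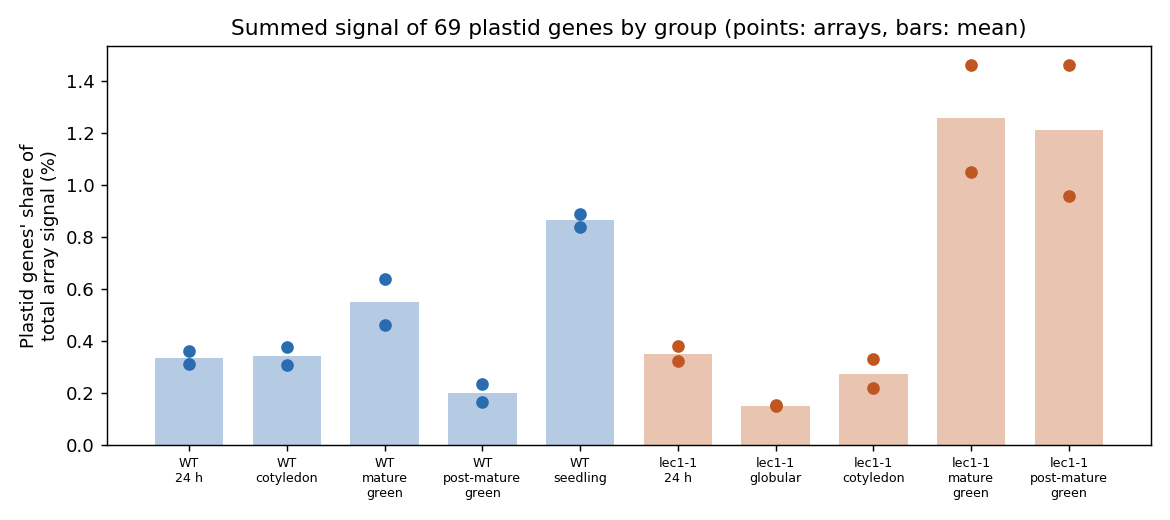
Share of the total signal of an array held by the 69 plastid genes, in percent, for the 20 arrays in 10 groups of 2; each point is an array and each bar the group mean, with the axis starting at 0. The 4 late lec1-1 arrays lie between 0.957% and 1.46%, above the 2 seedling arrays at 0.838% and 0.887%, and the globular lec1-1 arrays are the lowest at 0.149% and 0.151%.

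The group with the highest mean was lec1-1 mature green seed for 36 of the 69 genes, lec1-1 post-mature green seed for 15, wild-type seedlings for 16 and wild-type mature green seed for 2 (accD and rpoB). The group with the lowest mean was lec1-1 globular seed for 43 genes, lec1-1 cotyledon seed for 12, wild-type post-mature green seed for 9, wild-type 24-hour seed for 3 and lec1-1 24-hour seed for 2. Complexes differed in where their genes peaked. Of the 6 ATP synthase genes 4 were highest in seedlings, as were 3 of the 5 photosystem I genes. Highest in lec1-1 mature green seed were 9 of the 15 ribosomal, 6 of the 10 NDH and 4 of the 6 cytochrome b6f genes. That group had the highest mean for 36 of all 69 genes, so a peak there was not particular to the ribosomal genes. These counts describe group means and carry no test.

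**Figure D2:**
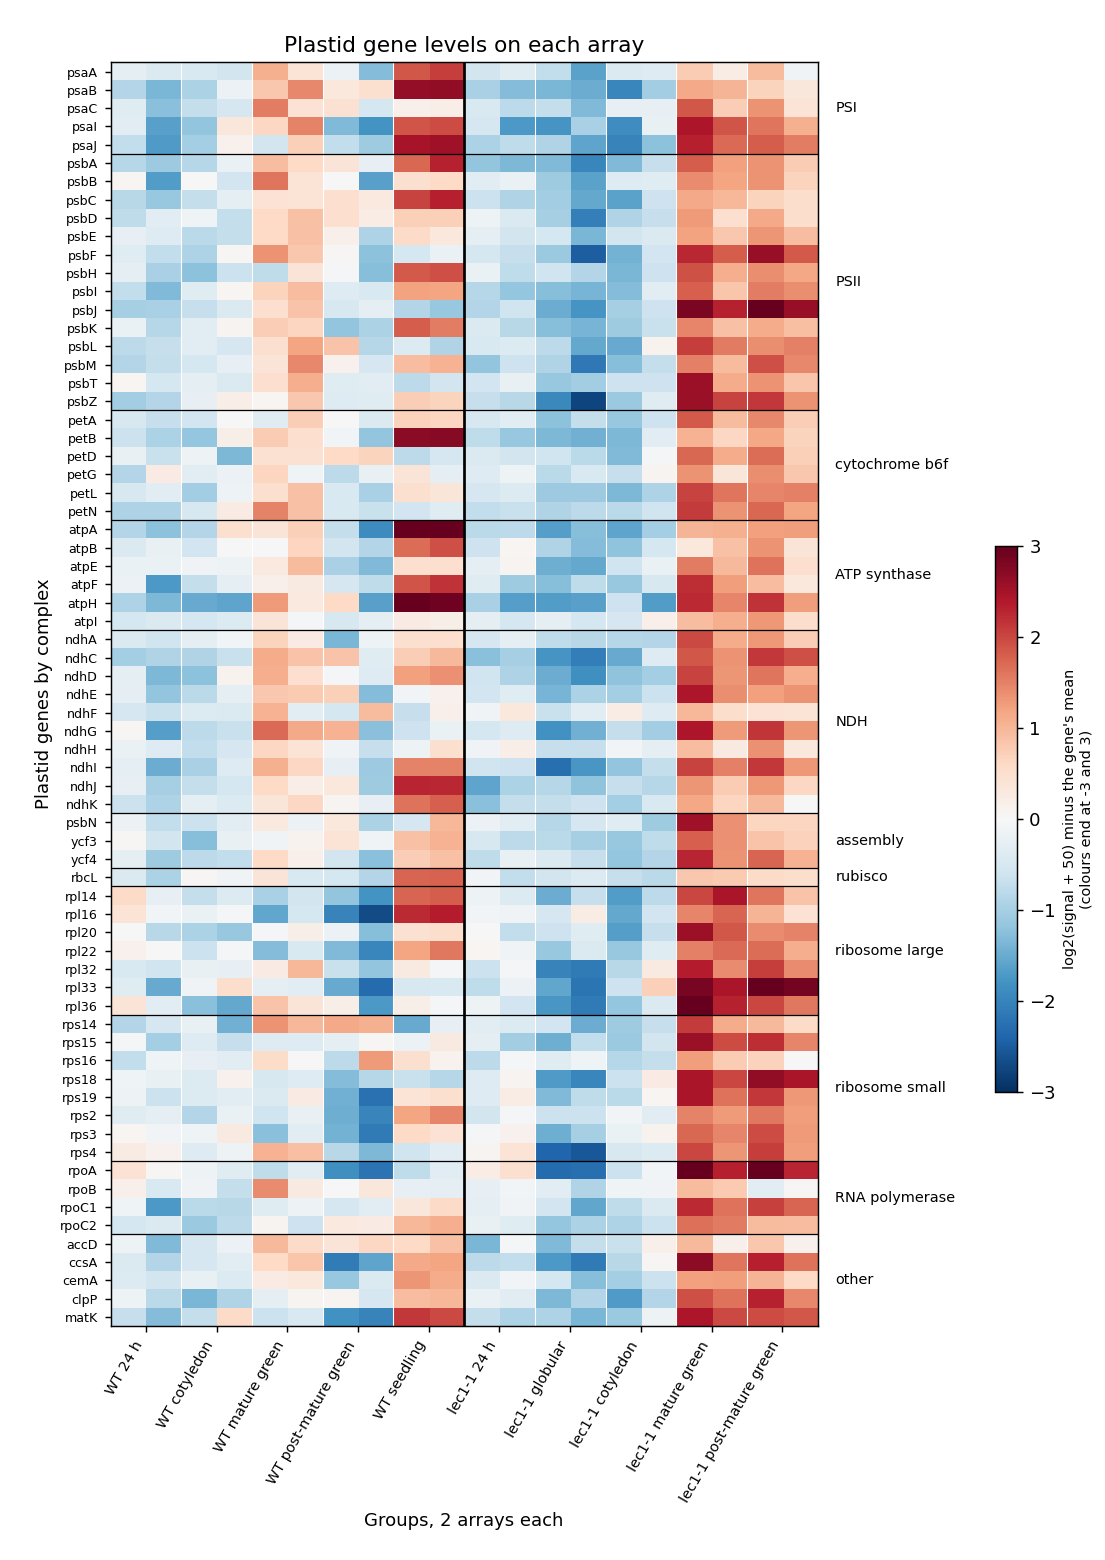
Log2(signal + 50) of each of the 69 plastid genes on each of the 20 arrays, after subtracting the gene's own mean over the arrays, with genes in rows by complex and the 10 groups in columns of 2 arrays each; red is above and blue below that mean, and colours end at -3 and 3. The lec1-1 mature green and post-mature green columns are red for most rows, the ribosomal ones among them, and the photosystem I and ATP synthase rows also stand high in seedlings.

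All tests below come from 1 limma model with moderated variances over the 20 arrays, fitted to log2(signal + 50) of 18459 probe sets, with Benjamini-Hochberg adjustment over all of them. A gene is said to have risen, fallen or differed where its adjusted p was below 0.05. Differences are on that log2 scale, which understates changes of dim genes. For a gene whose dimmer group had both arrays under 100, only a lower limit of the fold is printed, namely the brighter group's mean divided by 100.

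The first question was how plastid transcripts followed seed development in wild type. From 24 hours to the cotyledon stage little moved: 4 plastid genes rose and 1 fell, against 24.4% of all probe sets called in either direction, and the plastid median was 0.11 against -0.05 over all probe sets. The genes that rose were rpl33, encoding a protein of the large ribosomal subunit, psbZ and psbI, small photosystem II subunits, and matK, the intron maturase, and rpl36 fell. rpl33 read 375 and 139.6 at 24 hours and 455 and 731 at the cotyledon stage, a difference of 1.15 ± 0.41 (SE; adjusted p = 0.0473, limma). psbZ went from 450.1 and 511 to 822 and 1139 (0.94 ± 0.31) and psbI from 219 and 131 to 299.6 and 417 (0.87 ± 0.31). rpl36 went from 379 and 207 to 87.4 and 63.1, at least 2.8-fold lower. The arrays of the groups did not overlap for these 4 genes but did for matK (611 and 380.3, then 602 and 1525). The number of calls, 5 in all, was small and unsteady: it fell to 3 without 24-hour replicate 1, to 1 without 24-hour replicate 2 and to 0 without cotyledon replicate 2.

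Between the cotyledon and mature green stages of wild type most of the plastid genes that rose encode photosynthesis proteins. In all 34 plastid genes were higher and 2 lower in mature green seed, against 14.4% of all probe sets higher and 18.2% lower (32.6% in all), with a plastid median of 0.96 against -0.04. Of the 41 genes of the 5 photosynthetic complexes 25 rose and none fell (median 1.15), made up of 4 of 5 for photosystem I, 10 of 14 for photosystem II, 4 of 6 for cytochrome b6f, 1 of 6 for ATP synthase and 6 of 10 for NDH. The 34 include ndhH, which passed the signal filter only through late lec1-1 seed. Among the 65 genes that passed it without those arrays 33 rose, 24 of 38 photosynthetic and 5 of 9 NDH genes among them. Of the 15 ribosomal protein genes 4 rose and 2 fell (median 0.14). The difference between these classes was not tested. The calls of the whole set numbered 36, and 15 without cotyledon replicate 1 or 18 without mature green replicate 1.

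atpH, the ring subunit of ATP synthase, read 10.9 and 8.1 in wild-type cotyledon seed and 369 and 161 in mature green seed, at least 2.44-fold higher (2.32 ± 0.55, adjusted p = 0.00284). ndhG, a membrane subunit of the NDH complex, went from 65.4 and 73.4 to 589 and 387, at least 4.78-fold higher (2.15 ± 0.59, adjusted p = 0.00793). Without mature green replicate 1 the adjusted p of atpH was 0.0523 and that of ndhG 0.0715. rpl36 went from 87.4 and 63.1 back up to 539.9 and 377, at least 4.51-fold higher. In each of these genes both mature green arrays were above both cotyledon arrays. The 2 genes that fell are neighbours in 1 ribosomal run. rpl16 went from 1276 and 1413 to 464 and 1010.3 (-0.92 ± 0.34, adjusted p = 0.0463), and rps3 from 2720.1 and 3585 to 1217 and 2366 (-0.86 ± 0.28). Without mature green replicate 1 the differences of rpl16 and rps3 were both -0.39, with adjusted p = 0.493 and 0.38. The call of rpl16 was lost in 9 of the other settings, both other scalings among them, and that of rps3 in 3.

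Wild-type seeds then lost plastid transcripts as they matured further. From mature green to post-mature green 34 plastid genes fell and none rose, against 19.1% of all probe sets lower, with a plastid median of -1.01 against 0.04. The genes that fell included 21 of 41 photosynthetic and 8 of 15 ribosomal genes, but only 1 of 4 RNA polymerase genes, a share near that of all probe sets, and not rbcL. psaI, a small photosystem I subunit, went from 897 and 1670.0 to 197 and 127, a 7.74-fold drop (-2.61 ± 0.55, adjusted p = 0.00106). ccsA, needed to attach haem to c-type cytochromes, went from 2945 and 3459 to 414 and 606, 6.37-fold (-2.55 ± 0.31). rps4, a small-subunit ribosomal protein gene, went from 16225 and 14715 to 4419 and 3057, 4.2-fold (-2.06 ± 0.25). All post-mature green arrays lay below all mature green arrays for these genes. Without post-mature green replicate 2, the dimmer array for most plastid genes, 17 genes fell, and 17 were also called when the 2 groups were fitted alone.

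Seedlings had regained plastid transcripts, but not of every gene. Against wild-type post-mature green seed 43 plastid genes were higher and 3 lower, beside 28.1% and 32.5% of all probe sets (60.6% in all), with a plastid median of 1.23 against -0.15. By complex, 5 of 6 ATP synthase genes, 4 of 5 photosystem I genes, 9 of 14 photosystem II genes, 5 of 10 NDH genes and 2 of 6 cytochrome b6f genes rose, as did 10 of 15 ribosomal genes. atpA, the alpha subunit of the ATP synthase headpiece, read 183 and 52.8 in post-mature green seed and 3734 and 3644 in seedlings, 37.6-fold higher (4.6 ± 0.37, adjusted p = 3.1e-09). rpl16 went from 334 and 189 to 7159.6 and 7818, 29.8-fold (4.64 ± 0.34), and matK from 252 and 216 to 4579 and 4163, 18.7-fold (3.96 ± 0.33). In all of these the 2 seedling arrays agreed closely and lay far above both seed arrays. The rubisco large subunit gene rbcL went from 88.1 and 57.4 to 619 and 625, at least 6.22-fold higher (2.46 ± 0.31).

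The 3 genes that were lower in seedlings belong to 3 different complexes. rps14, which lies beside the photosystem I genes psaA and psaB, read 299 and 280.3 in post-mature green seed and 5.7 and 84.4 in seedlings, at least 2.89-fold lower. petD, subunit IV of cytochrome b6f, went from 233 and 245 to 57.3 and 81.6, at least 2.39-fold lower, with adjusted p = 0.0139, or 0.0505 and 0.0859 without post-mature green replicate 2 or seedling replicate 1. psbJ, a small photosystem II subunit, went from 164 and 199 to 113 and 86 (-0.63 ± 0.26, adjusted p = 0.0457), and this difference missed the threshold in each fit that left out 1 of the 4 arrays (adjusted p = 0.0548 to 0.217). psaB, the direct neighbour of rps14, rose over the same interval from 2514 and 2819.5 to 12622 and 12815.

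In lec1-1 the plastid median of the early course was lowest at the globular stage, which has no wild-type counterpart here. Of the 69 plastid genes, the shares called into and out of that stage did not exceed the totals of all probe sets called up or down (29.9% and 15.2%). The plastid calls of a step all had the same direction, and in that direction their shares were above those of all probe sets. Among the 65 genes that passed the signal filter without late lec1-1 seed, 23.1% fell into the stage, against 16.5% of all probe sets. Out of it 15.4% rose, against 8.27%. These shares were not compared by a test. From 24 hours to globular seed 15 plastid genes fell and none rose, against 16.5% of all probe sets lower and 29.9% called in either direction (plastid median -0.63, all probe sets -0.06). rps4 dropped from 8389 and 10510.1 to 1479 and 1313, 6.74-fold (-2.71 ± 0.25). rpoA, the alpha subunit of the plastid-encoded RNA polymerase, dropped from 2138 and 2526 to 327 and 335, 7.02-fold (-2.64 ± 0.28), and rpl32 from 1069 and 1659.8 to 383 and 350.0. The 2 globular arrays, whose labels state no scaling, were below both 24-hour arrays for all 3 genes. From globular to cotyledon seed 10 genes rose and none fell, against 8.27% of all probe sets higher and 6.9% lower, and 6 were called without cotyledon replicate 2. rps4 returned to 5636 and 5923 (4.15-fold), rpoA to 1137 and 1709 (4.21-fold), and rpl33 went from 134 and 68.1 to 302 and 845 (5.29-fold, adjusted p = 0.00285, or 0.0902 without cotyledon replicate 2).

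Of the 4 steps of lec1-1, the one with the most plastid calls came between the cotyledon and mature green stages. Of the 69 plastid genes 64 rose and none fell, against 18.8% of all probe sets higher and 36.6% called in either direction, with a plastid median of 2.42 against 0.03. The count includes rps16 and atpI, which passed the signal filter only through late lec1-1 seed. Of the 65 genes that passed it without those arrays 62 rose, made up of 14 of 14 ribosomal genes, 4 of 4 RNA polymerase genes, 36 of 38 photosynthetic genes and 8 of the other 9. psaJ, a small photosystem I subunit, read 59.1 and 134 in lec1-1 cotyledon seed and 2129.6 and 1355 in mature green seed, 19.1-fold higher (3.63 ± 0.42, adjusted p = 1.42e-06). rpl36 went from 97.3 and 190.4 to 3003 and 1579 (16-fold), and rpl14 from 241 and 492 to 3702 and 5018 (12.5-fold). In each the arrays stood well apart. The same step raised 32 genes in both genotypes, 32 in lec1-1 alone by call, psaA and ndhH in wild type alone by call, and accD, petG and ndhF in neither.

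From mature green to post-mature green lec1-1 seed no plastid gene changed by limma's adjusted p, against 3.41% of all probe sets called, and 9 had an unadjusted p below 0.05. The median was -0.26, and it took either sign depending on the arrays left out. Wild type fell over the same interval, and the test of that difference between genotypes is given further on.

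**Figure D3:**
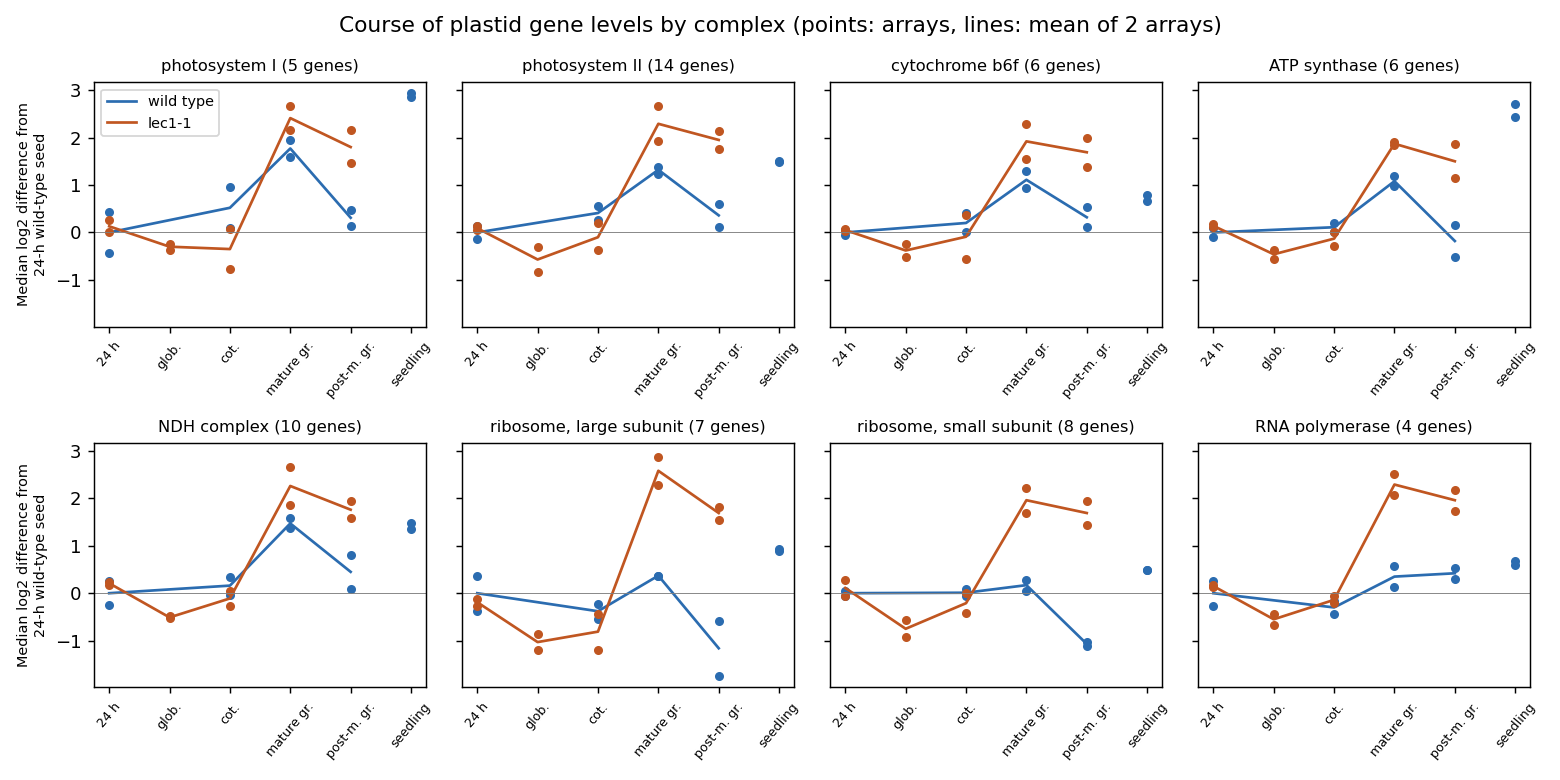
Median over the genes of a complex of log2(signal + 50) minus each gene's wild-type 24-hour mean (vertical axis, log2 units), by stage on the horizontal axis, in 8 panels; points are arrays and lines join the means of 2 arrays over the seed stages of wild type and lec1-1. Wild-type photosystem II genes rise to 1.24 and 1.39 in mature green seed and return to 0.61 and 0.11, the wild-type large ribosomal subunit stands at 0.37 and 0.36 and drops to -0.58 and -1.75, and in lec1-1 both stay between 1.55 and 2.87 at these stages.

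The central question of the study design was how lec1-1 differed from wild type at a matched stage. At 24 hours no plastid gene differed, with 0 also at an unadjusted p below 0.05, against 0.119% of all probe sets called in either direction and 0.00542% higher, and the plastid median was 0.06. At the cotyledon stage none differed either by limma's adjusted p, against 0.71% of all probe sets in either direction and 0.065% higher, with 9 genes at an unadjusted p below 0.05 and a median of -0.26. In mature green seed 31 plastid genes were higher in lec1-1 and none lower, against 15.7% of all probe sets higher and 13% lower, with a plastid median of 0.97 against 0.02. In post-mature green seed 56 were higher and none lower, against 23.7% higher and 20.5% lower of all probe sets (44.1% in all), with a median of 1.83 against -0.02. Among the 65 genes that passed the signal filter without late lec1-1 seed the counts were 31 and 53, since atpI, petG and ndhH are among the 56. By call, 29 genes were higher at both stages, 27 at post-mature green alone (24 without those 3), ycf3 and psbN at mature green alone, and 11 at neither (rps16, rpoB, psbD, psbC, rps14, psaB, ndhK, accD, petD, ndhF and psaC).

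The mature green count dropped to 20 without lec1-1 mature green replicate 1, the brighter of its group, and stood at 27 with the lot statement as a covariate, of which 24 were among the 31. Of the genes named below, ycf4 (adjusted p = 0.051), ccsA (0.0882), rpl32 (0.107), petA (0.109) and rps4 (0.147) lost their mature green call with that covariate. Only wild-type post-mature green and lec1-1 24-hour seed had arrays with and without a stated lot. The covariate was thus estimated from the gaps between their replicates. It cannot separate lot from genotype in mature green seed, where the lot statement went with the genotype. With an offset of 1 in place of 50, petA, psbN, atpF and rps4 lost it (0.0686, 0.0841, 0.171 and 0.0632). The post-mature green stage can be compared within arrays of no stated lot, by leaving out wild-type replicate 1, and the median was then 2.12. That comparison rests on a single wild-type array, replicate 2, the dimmer of its group for most plastid genes. Signals of markers of other tissues stand beside the genotype differences, without a test. ALC, the 1 measured silique wall marker of 5 listed, read 179.3 and 190.6 in wild-type mature green seed against 471.1 and 347.1 in lec1-1, and 133.6 and 146.5 against 392.9 and 402.6 in post-mature green seed. Its signal was far higher early, at 7730.5 and 6179.6 in wild-type and 8134.7 and 7301.2 in lec1-1 24-hour seed. It read 3591.4 and 4138.1 in globular seed, and 739.7 and 751.1 in wild-type and 962.6 and 1039.7 in lec1-1 cotyledon seed. The early steps therefore also span a change in this marker. The summed signal of the seed coat markers BAN and DFR, 2 of 4 listed, was 1058.7 to 1880.5 in wild-type and 1185.4 to 1858.9 in lec1-1 mature green seed, and 708.9 to 785.7 against 1167 to 1555.6 in post-mature green seed. The 2 measured endosperm markers of 3 listed, AGL62 and IKU2, summed to 90.9 to 133.3 against 163.7 to 191.9 and to 41.6 to 178.9 against 19.8 to 21.8. Most single signals of AGL62 and IKU2 were below 100, so these sums say little about endosperm. The summed seed maturation markers stood at 38337 to 46260 in mature green and 55751 to 59096 in post-mature green seed of lec1-1, below the mature green sums given above and the 201920 to 212750 in wild-type post-mature green seed. ICL, the 1 measured gene of 5 listed as seedling markers, read 17537 and 8246 in wild-type and 15139 and 11438 in lec1-1 mature green seed. In post-mature green seed it read 22932 and 18905 in wild type and 28696 and 16853 in lec1-1. Seedlings, at 6229.9 and 6885.5, were below all of these seed arrays, so ICL does not mark seedlings apart from late seed here. The part of these tissues in the plastid result was not tested.

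Photosystem I genes encode the reaction centre (psaA, psaB, psaC) and small subunits at its edge (psaI, psaJ). In mature green seed 15.7% of all probe sets were higher in lec1-1. The counts of photosystem I, photosystem II, ATP synthase and NDH genes at this stage lay near that share. Of the 5 photosystem I genes 1 was higher. This was psaJ, at 248 and 667 in wild type and 2129.6 and 1355 in lec1-1, 4.17-fold higher (1.92 ± 0.42, adjusted p = 0.00183). psaB read 3566 and 5546 in wild type and 4468 and 4125 in lec1-1, so that the groups overlapped (-0.05 ± 0.28, adjusted p = 0.917). In post-mature green seed psaJ (2.59), psaI (2.89) and psaA (1.15) were higher, and psaB overlapped again, at 2514 and 2819.5 against 3227 and 2531 (0.1 ± 0.28).

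Photosystem II genes numbered 14, of which 3 were higher in lec1-1 mature green seed and 12 in post-mature green seed. psbJ read 374 and 488 in wild-type mature green seed and 2067 and 1425 in lec1-1, 4.01-fold higher (1.89 ± 0.26, adjusted p = 2.36e-05). At the post-mature green stage psbJ read 164 and 199 against 2558 and 1768, 11.8-fold higher (3.24 ± 0.26). Both lec1-1 arrays were above both wild-type arrays at each stage. psbM, another small subunit, read 8865 and 18469 against 19421 and 13234 in mature green seed, which overlapped (0.32 ± 0.36, adjusted p = 0.552), and 7409 and 4773 against 25945 and 18413 in post-mature green seed (1.87 ± 0.36). psbA, which encodes the rapidly replaced D1 protein, read 1011 and 799.8 against 1918 and 1254 (0.75 ± 0.32, adjusted p = 0.0845) and then 676 and 422 against 1365 and 896 (0.98 ± 0.32, adjusted p = 0.0172). The genes for the D2 protein and the CP43 antenna, psbD and psbC, differed at neither stage.

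In the cytochrome b6f complex, which passes electrons between the photosystems, 2 of 6 genes were higher in lec1-1 mature green seed and 5 of 6 in post-mature green seed (4 of 5 without petG). petA, the cytochrome f gene, read 117 and 308 in wild-type mature green seed and 715 and 366 in lec1-1 (1.21 ± 0.38, adjusted p = 0.0236), with no overlap. That call was lost without lec1-1 replicate 1 (0.77, adjusted p = 0.255) and without wild-type replicate 1 (0.66, adjusted p = 0.295). petB, the cytochrome b6 gene, read 781 and 639.8 against 964 and 704 in mature green seed (0.21 ± 0.39) and 414 and 165 against 1046 and 734 in post-mature green seed (1.55 ± 0.39, adjusted p = 0.00346). petB overlapped between genotypes at the first stage and stood apart at the second, where without wild-type replicate 2 its difference was 1.0 with adjusted p = 0.0754.

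ATP synthase had 1 of 6 genes higher in lec1-1 mature green seed and 6 of 6 in post-mature green seed. atpI is 1 of these 6 and reached 100 on no array outside late lec1-1 seed, so that 5 of the 5 others remain. atpF, a stalk subunit, read 162 and 179 against 839.8 and 403 in mature green seed (1.53 ± 0.44, adjusted p = 0.0136) and 84 and 62.7 against 313 and 187 in post-mature green seed, at least 2.42-fold higher. Both atpF calls were lost without lec1-1 replicate 1 of the stage (adjusted p = 0.177 and 0.195) and without wild-type replicate 1 (0.0629 and 0.0534), and the second also without wild-type replicate 2 (0.108). atpE, the epsilon subunit, read 15052 and 23575 against 35783 and 24052 in mature green seed (0.64 ± 0.29, adjusted p = 0.109). At post-mature green atpE read 6214 and 4849.9 against 37878 and 17323, 4.67-fold higher (2.21 ± 0.29, adjusted p = 5.13e-06).

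The NDH complex, which returns electrons to the plastoquinone pool, had 1 of 10 genes higher in lec1-1 mature green seed (ndhA, 1.09) and 8 of 10 in post-mature green seed (7 of 9 without ndhH). ndhC read 1375 and 1148 against 2359.9 and 1628 (0.62 ± 0.34) and then 1149.9 and 467 against 2830.3 and 2471 (1.77 ± 0.34, adjusted p = 0.0003). ndhE read 206 and 202 against 738 and 337 (1.12 ± 0.49, adjusted p = 0.0992) and then 189 and 9.6 against 295 and 319.7 (1.58 ± 0.49, adjusted p = 0.0139). The wild-type replicates of ndhE at post-mature green were far apart, and without replicate 2 its difference was 0.58 with adjusted p = 0.324. Leaving out lec1-1 replicate 1 or 2 also ended that call, at adjusted p = 0.0515 and 0.0642.

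The 3 genes for assembly factors, ycf3 and ycf4 of photosystem I and psbN of photosystem II, were all higher in lec1-1 mature green seed (1.58, 1.43 and 1.9). psbN read 105 and 62 in wild type and 684 and 277 in lec1-1 (adjusted p = 0.00661), and this call was lost without lec1-1 replicate 1 (1.31, adjusted p = 0.117) and without wild-type replicate 2 (1.66, adjusted p = 0.0517). ycf4 read 407 and 285 against 1406 and 709.7 (adjusted p = 0.00452), and without lec1-1 replicate 1 its difference was 0.96 with adjusted p = 0.102. In post-mature green seed ycf4 alone of the 3 was higher (155 and 76.5 against 967 and 567, 2.3 ± 0.35). The rubisco gene rbcL read 211 and 94.1 against 300.2 and 289 in mature green seed (0.83 ± 0.31, adjusted p = 0.0522) and 88.1 and 57.4 against 243 and 234 in post-mature green seed, at least 2.39-fold higher (1.24 ± 0.31, adjusted p = 0.00306).

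Genes of the plastid's own gene expression machinery were mostly higher in lec1-1 at both late stages. In mature green seed 16 of the 19 ribosomal and RNA polymerase genes were higher in lec1-1 (median 2.16), beside 8 of the 41 photosynthetic genes (median 0.64). The latter share was near the 15.7% of all probe sets higher at this stage. At post-mature green the counts were 16 of 19 (median 2.71) and 34 of 41 (median 1.58), or 31 of 38 without atpI, petG and ndhH. Of all probe sets 23.7% were higher there. No test of the difference between these classes was made. Over the 69 genes the genotype difference was larger in genes with a higher mean log2 level. The Spearman rho was 0.357 in mature green and 0.596 in post-mature green seed, and the Pearson r 0.287 and 0.492. The part of signal level in the difference between the classes was not tested. All 7 genes of the large ribosomal subunit were higher at both stages. rpl14 read 425 and 582 in wild-type mature green seed and 3702 and 5018 in lec1-1, 8.66-fold higher (2.99 ± 0.34, adjusted p = 2.01e-06), and 363 and 218 against 2779 and 1638 at post-mature green (2.71 ± 0.34). rpl33 read 393 and 379 against 3852 and 2923, 8.69-fold higher (2.97 ± 0.41, adjusted p = 1.97e-05), and then 140.2 and 60.1 against 5253 and 3911, 49.4-fold higher (4.99 ± 0.41, adjusted p = 1.52e-08). For both genes every lec1-1 array was several times above every wild-type array of the stage. rpl32 read 2011 and 3404 against 8837 and 4607 (1.27 ± 0.34) and then 1039 and 719 against 7294 and 4562 (2.67 ± 0.34), and its mature green call was lost without replicate 1 of lec1-1 or of wild type (adjusted p = 0.159 and 0.119).

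Of the 8 genes of the small ribosomal subunit 6 were higher in lec1-1 at each stage, and rps14 and rps16 at neither. rps18 read 274 and 296 in wild-type mature green seed and 2423 and 1784 in lec1-1, 7.3-fold higher (2.67 ± 0.28, adjusted p = 8.58e-07), and then 135 and 201 against 2797 and 2412, 15.7-fold higher (3.62 ± 0.28). rps4 read 16225 and 14715 against 31946 and 19703 in mature green seed (0.7 ± 0.25, adjusted p = 0.043), and this call was lost in 8 other settings, 3 of them fits without 1 array (adjusted p = 0.0603 to 0.417). At post-mature green rps4 read 4419 and 3057 against 33279 and 18736, 6.79-fold higher (2.75 ± 0.25, adjusted p = 6.05e-08). The rps4 arrays did not overlap at either stage.

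Of the 4 RNA polymerase genes, rpoA had the largest mature green difference of all 69 genes. It read 1056 and 1413 in wild-type mature green seed and 16129 and 9308 in lec1-1, 10-fold higher (3.27 ± 0.28, adjusted p = 8.05e-08). At post-mature green it read 474 and 348 against 16428 and 9029, 30-fold higher (4.74 ± 0.28, adjusted p = 2.59e-10). rpoC1 and rpoC2, which encode the beta' and beta'' subunits, were higher at both stages (2.2 and 1.87, then 2.31 and 0.68), with rpoC2 at 223 and 117 against 754 and 709.8 and then 267 and 254 against 449 and 442. rpoB, the beta subunit gene at the head of the same run, read 275 and 98 against 185 and 159.6 in mature green seed (0.02 ± 0.38, adjusted p = 0.979) and 74 and 104 against 46 and 74.1 in post-mature green seed (-0.34 ± 0.38). The rpoB arrays of the 2 genotypes overlapped at both stages.

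Among the other 5 proteins, matK, ccsA, clpP and cemA were higher in lec1-1 at both stages and accD at neither. matK, which helps splice several plastid introns, read 635 and 721 against 5634 and 4142 in mature green seed, 7.14-fold higher (2.75 ± 0.33, adjusted p = 4.53e-06), and 252 and 216 against 4056 and 3797 in post-mature green seed, 16.8-fold higher (3.81 ± 0.33). ccsA read 2945 and 3459 against 12612 and 5930.0 (1.42 ± 0.31, adjusted p = 0.00189) and then 414 and 606 against 9907 and 6035, 15.4-fold higher (3.82 ± 0.31). The call of ccsA in mature green seed was lost without lec1-1 replicate 1 (0.88, adjusted p = 0.0633) and with the lot covariate (1.15). clpP, the proteolytic subunit of the Clp protease, read 1798 and 2328 against 8552 and 6942 (1.89 ± 0.3) and then 2314 and 1523 against 11019 and 6040.0 (2.09 ± 0.3). accD, the acetyl-CoA carboxylase subunit of plastid fatty acid synthesis, read 239 and 172 against 244 and 116 (-0.2 ± 0.47) and then 145 and 177 against 212 and 113 (-0.03 ± 0.47), with overlapping arrays.

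A separate list of runs placed 54 of the genes in 15 runs, and the TAIR10.1 annotation gave only the gene order. The listed runs are not always unbroken, since psbN lies between psbT and psbH but is not in their run. Some runs had a narrow and some a wide range of differences between genotypes. The run rps19, rpl22, rps3, rpl16, rpl14, rpl36 and rpoA had 7 of 7 genes higher in lec1-1 at both stages, with differences of 2.14 to 3.27 in mature green and 2.56 to 4.74 in post-mature green seed. The pair rpl33 and rps18 stood at 2.97 and 2.67 and then at 4.99 and 3.62, and the pair clpP and rpl20 at 1.89 and 2.16 and then at 2.09 and 2.17. The psaA, psaB and rps14 run had 0 of 3 genes higher in mature green seed and 1 of 3 in post-mature green seed, although rps14 encodes a ribosomal protein. The psbE, psbF, psbL and psbJ run spread from 0.27 for psbE to 1.89 for psbJ at the first stage and from 1.45 to 3.24 at the second. Wide ranges in mature green seed were also those of the rpoB, rpoC1 and rpoC2 run (0.02 to 2.2), of psbD, psbC and psbZ (0.16 to 1.87) and of atpA, atpF, atpH, atpI and rps2 (0.49 to 1.8). Genes of a run can share an RNA, so their values are not independent measurements. Over the 69 genes the differences at mature green and at post-mature green, which rest on separate arrays, had a Pearson r of 0.69 and a Spearman rho of 0.65, given as a description across genes of shared arrays.

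**Figure D4:**
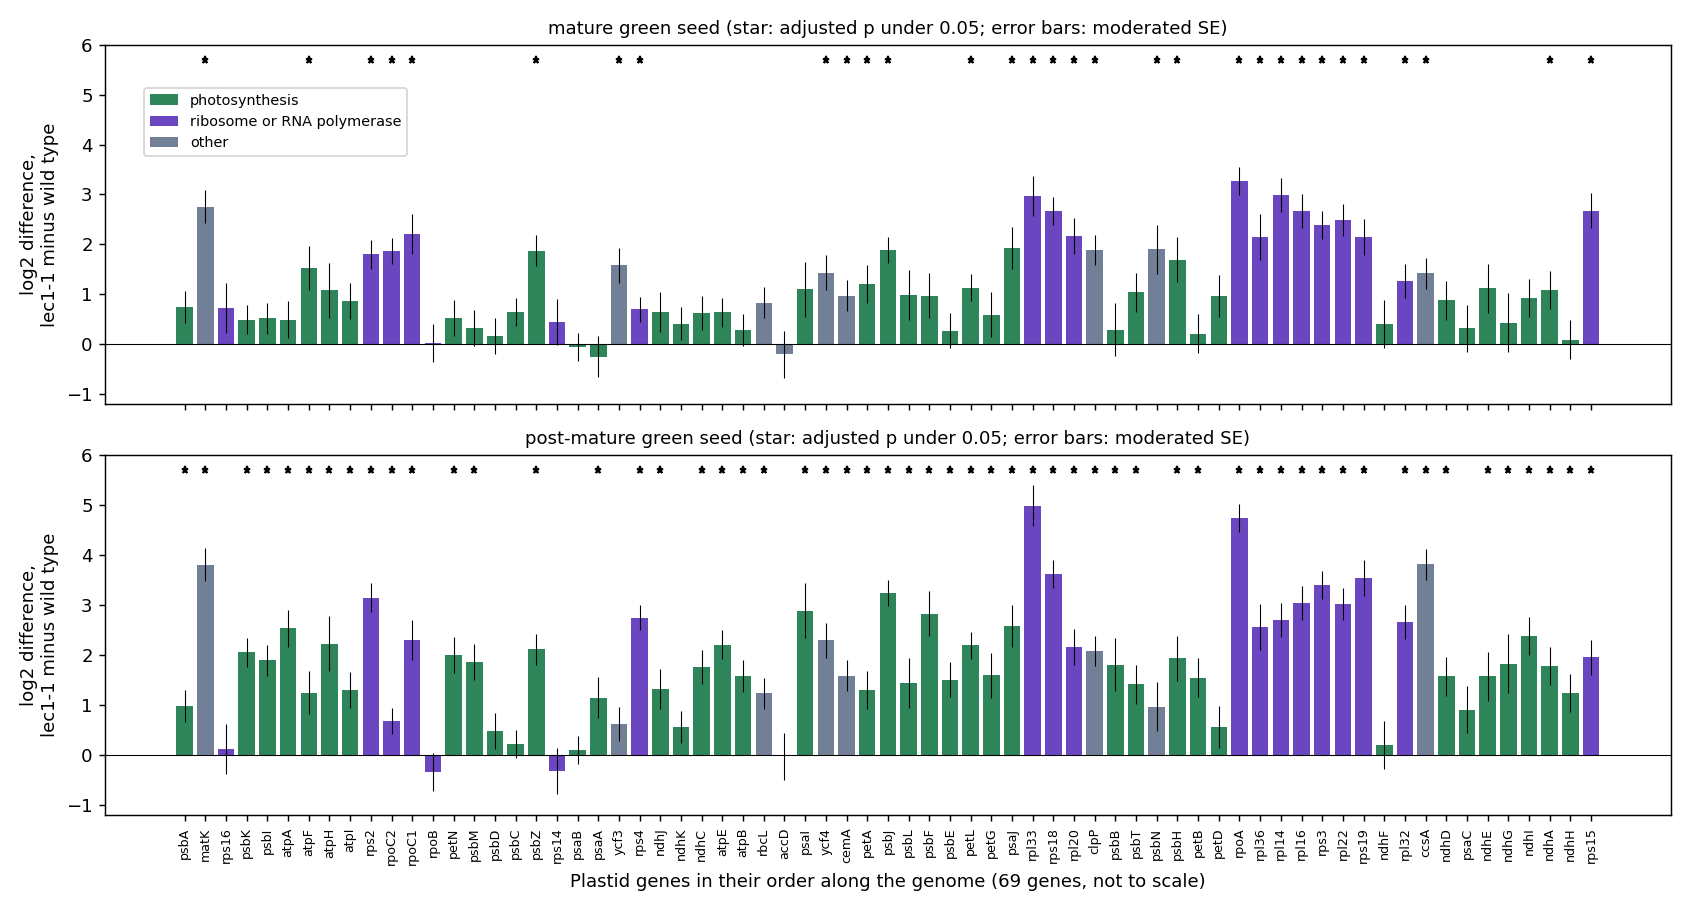
Difference between lec1-1 and wild type in log2(signal + 50) (bars, coloured by kind of complex), with error bars for the standard error, for the 69 plastid genes in their order along the plastid chromosome (rank, not distance), in mature green and post-mature green seed; stars mark an adjusted p below 0.05. The ribosomal run that ends in rpoA stands between 2.14 and 3.27 in mature green seed, while psaA, psaB and rps14 lie between -0.25 and 0.44.

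Whether the genotypes took different courses was tested as an interaction, the lec1-1 step minus the wild-type step. From 24 hours to the cotyledon stage no plastid gene differed by limma's adjusted p, against 0.314% of all probe sets (0.0867% with the greater step in lec1-1 and 0.228% with the greater step in wild type), with 4 at an unadjusted p below 0.05. From the cotyledon to the mature green stage 31 genes rose by more in lec1-1 than in wild type and none by less, against 10.7% and 7.82% of all probe sets (18.5% in all). These were 13 of the 19 ribosomal and RNA polymerase genes and 10 of the 41 photosynthetic genes, the 3 assembly genes, rbcL and 4 of the other 5. rpl14 went from 521 and 655 to 425 and 582 in wild type but from 241 and 492 to 3702 and 5018 in lec1-1, a difference between the steps of 3.67 ± 0.48 (adjusted p = 3.25e-05). rpl16 fell in wild type, as given above, and went from 477 and 982 to 4197 and 5099 in lec1-1 (3.58 ± 0.48), and rpoA went from 1622 and 1404 to 1056 and 1413 in wild type and from 1137 and 1709 to 16129 and 9308 in lec1-1 (3.38 ± 0.4, adjusted p = 1.33e-05). The count was 19 without wild-type cotyledon replicate 2, 20 without lec1-1 cotyledon replicate 1 and 18 without lec1-1 mature green replicate 1.

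From mature green to post-mature green 11 genes differed in their step towards lec1-1 and 1 towards wild type, against 10% and 5.91% of all probe sets, so that the 12 of 69 called were near the background of 15.9% in either direction. ccsA fell in wild type from 2945 and 3459 to 414 and 606 and read 12612 and 5930.0 and then 9907 and 6035 in lec1-1, a difference between steps of 2.39 ± 0.44 (adjusted p = 0.001). rps4 differed by 2.05 ± 0.35 (adjusted p = 0.000539). atpA went from 447 and 580.2 to 183 and 52.8 in wild type and from 725 and 749.9 to 841 and 861 in lec1-1, a difference of 2.05 ± 0.53 (adjusted p = 0.0115, or 0.0546 without wild-type post-mature green replicate 2). rpoC2 was the 1 gene with the opposite sign (-1.2 ± 0.36, adjusted p = 0.0291). Single arrays moved this count of 12 widely. Leaving out wild-type mature green replicate 2 gave 5, leaving out wild-type post-mature green replicate 1 or 2 gave 23 or 6, and leaving out lec1-1 mature green replicate 2 or post-mature green replicate 1 gave 4 or 3.

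Late lec1-1 seed was also set against wild-type seedlings, a comparison added after the data were seen. Of the 69 genes 25 were higher and 12 lower in lec1-1 post-mature green seed, against 26.4% and 19.5% of all probe sets, so that the share of genes called was near the background (45.9% in either direction). The plastid median was 0.53 against 0.16 over all probe sets. Of the 15 ribosomal genes 10 were higher and 1 lower, and of the 41 photosynthetic genes 11 were higher and 10 lower. All calls of photosystem I (2 of 5) and of ATP synthase (3 of 6) were lower in lec1-1, and rbcL was lower too (243 and 234 against 619 and 625).

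psbJ read 2558 and 1768 in lec1-1 post-mature green seed and 113 and 86 in seedlings, 21.6-fold higher (3.87 ± 0.26, adjusted p = 1.05e-09). rpl33 read 5253 and 3911 against 339 and 348, 13.2-fold (3.54 ± 0.41), and rps18 read 2797 and 2412 against 234 and 199.9, 12-fold (3.31 ± 0.28). In the other direction psaB read 3227 and 2531 against 12622 and 12815, 4.45-fold lower (-2.13 ± 0.28). atpA read 841 and 861 against 3734 and 3644, 4.33-fold lower, and petB read 1046 and 734 against 3138 and 3202, 3.62-fold lower. None of these groups overlapped. matK, whose rise over wild-type seed was large, read 4056 and 3797 against 4579 and 4163 (-0.15 ± 0.33, adjusted p = 0.745).

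**Figure D5:**
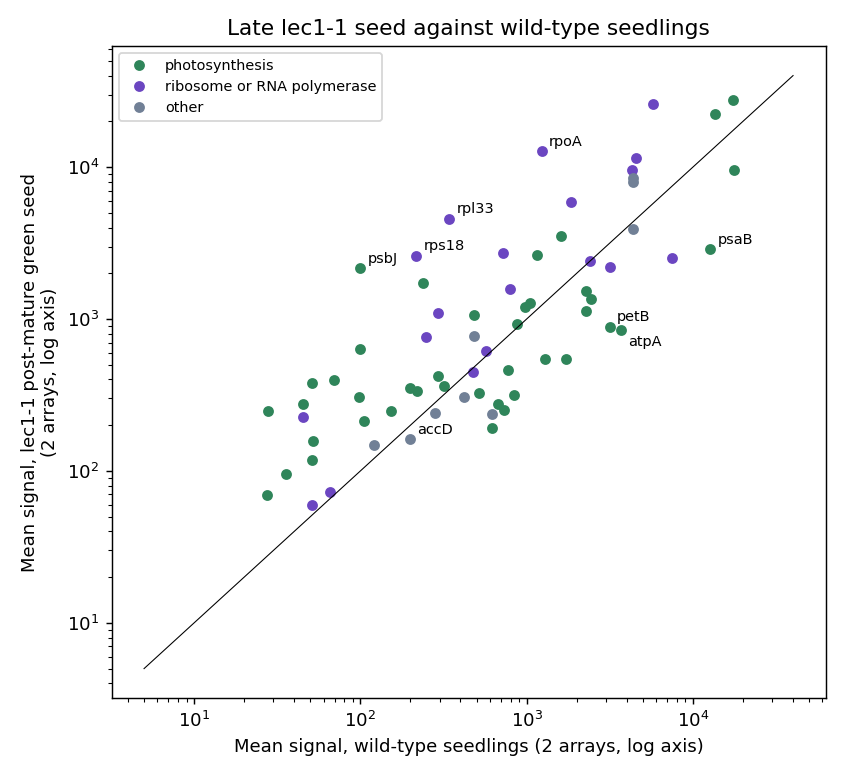
Mean signal of each of the 69 plastid genes in wild-type seedlings (horizontal axis, log scale) against lec1-1 post-mature green seed (vertical axis, log scale), 2 arrays each, with the line of equal signal; points are coloured by class. psbJ, rpl33, rps18 and rpoA lie above the line, and psaB, atpA and petB below it.

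Nuclear genes whose products join the same complexes or act on plastid RNA were measured for few members. Of 35 listed partner subunits 7 were named singly on the chip (PSAE-1, PSAN, PSBW, PSBY, ATPC1, NdhL and NdhN), of 21 plastid transcription genes 1 and of 10 RNA processing genes 1. In mature green seed 1 partner was higher in lec1-1 and 3 were lower, against 15.7% and 13% of all probe sets. NdhL read 130.3 and 83.2 in wild type and 393.9 and 255.8 in lec1-1 (1.25 ± 0.33, adjusted p = 0.00718), whereas PSAN read 1280.7 and 2653.1 against 679 and 850.3 (-1.23 ± 0.26, adjusted p = 0.00159). In post-mature green seed 6 of the 7 were higher and none lower (median 3.04), against 23.7% and 20.5% of all probe sets. PSBW read 209.5 and 317.2 in wild type and 3405 and 4243.2 in lec1-1 (3.64 ± 0.22, adjusted p = 2.71e-10). In wild type 6 of the 7 fell from mature green to post-mature green seed (median -3.82), against 19.1% of all probe sets. All 7 were higher in seedlings than in lec1-1 post-mature green seed, as were 19.5% of all probe sets. AT5G15700, an organellar RNA polymerase gene, read 78 and 97.7 against 32 and 226.3 in mature green seed and 210.8 and 197.4 against 196.9 and 192.2 in post-mature green seed, with overlap in the first and both wild-type arrays slightly above both lec1-1 arrays in the second (0.13 ± 0.41 and -0.05 ± 0.41, adjusted p = 0.851 and 0.929). AT5G42310, listed for RNA processing, differed by 0.08 ± 0.26 and 0.49 ± 0.26 (adjusted p = 0.857 and 0.141).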

How the data were processed

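RNA from whole seeds or seedlings was hybridised to ATH1 arrays, 20 in 10 groups of 2. The deposited values are signal intensity on a linear scale from Affymetrix Microarray Suite 5.0, scaled by the authors to a mean of 500 per the labels' protocols; the labels of the 2 globular arrays state no scaling. Background correction within that software is not described in the labels. The 10 AtGenome1 arrays of the series were not used, since the annotation given names no plastid gene on them.

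Control probe sets (64) were left out and probe sets with a signal of at least 100 on at least 2 arrays were kept, leaving 18459 of 22810. To each signal 50 was added before log2, and lmFit and eBayes with a trend (limma 3.58.1, R 4.3.3; 10 residual and 8.64 prior degrees of freedom) tested 15 planned contrasts and 1 added after the data were seen. The number of arrays, 2 per group, limits the precision. The p-values rest on 1 estimate of spread per probe set that all 10 groups share, and not on the spread of the groups compared. As given above, the replicate spread of the plastid genes differed between groups and was widest in wild-type post-mature green seed. The fit was also run on simulated data with independent normal noise of 1 spread per probe set in all groups. That run does not cover the unequal spreads of these groups.

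Probe sets were named through the platform annotation, and gene order came from TAIR10.1, whose plastid records hold 84 locus tags and 78 symbols. No 2 probe sets shared a gene here. Named genes were, per contrast, up to 3 in each direction with the largest passing difference and arrays that did not overlap; per complex, the gene with the highest mean signal and the one with the largest mature green genotype difference; and per interaction, up to 3 by adjusted p. Other genes were named for their position or complex, after their values were seen. The members, complexes and marker lists were chosen with earlier results of these data known.

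Replicate numbers are shared between genotypes, and deviations of same-numbered arrays correlated at 0.131, -0.0376, 0.0303 and 0.014 over the 4 stages, so the numbers were not taken as pairs. Alternatives were quantile normalization, scaling to the 75th percentile, an offset of 1, a floor of 100, no filter, only the groups of a contrast, the lot statement as a covariate, the replicate number as a block, and leaving out each array.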

Additional observations from a re-analysis of the deposited data

Results flagged for a closer look

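These results stand out because the lec1-1 and wild-type steps between the same stages differed by the interaction test of the limma model (adjusted p below 0.05). From the cotyledon to the mature green stage this held for 31 of 69 plastid genes, all in the same direction, against 18.5% of all probe sets (10.7% in that direction), among them rpoA (3.38 ± 0.4, SE), rpl14 (3.67 ± 0.48) and rpl16 (3.58 ± 0.48), each higher by that log2 amount in the lec1-1 step. From mature green to post-mature green it held for 12 of 69 plastid genes, a share near the 15.9% of all probe sets, among them ccsA (2.39 ± 0.44), rps4 (2.05 ± 0.35) and atpA (2.05 ± 0.53). In rpl16, lec1-1 rose over the first step while the wild-type difference was -0.92, a call that 9 of the other settings did not keep. In rps4 and ccsA, wild type fell over the second step while no change passed the test in lec1-1.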

How the results depend on the processing

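Each alternative was run on all 16 contrasts. The count of plastid genes from 24 hours to cotyledon seed in wild type was 5 and became 2 with an offset of 1, 1 with a floor of 100, 2 without a filter, 3 with the lot covariate and 2 with the replicate block; leaving out single arrays gave 0 to 4. With the groups of the contrast alone, the wild-type fall from mature green to post-mature green had 17 genes rather than 34, and the interaction over that step 5 rather than 12. An offset of 1 left 18 of 31 calls in the interaction from cotyledon to mature green, and a floor of 100 gave 3 calls rather than 0 from mature green to post-mature green in lec1-1. Leaving out single arrays gave 20 to 32 calls for mature green genotype, 15 to 25 for wild-type cotyledon to mature green, 17 to 38 for the wild-type fall, 6 to 10 for lec1-1 globular to cotyledon, 0 to 1 for lec1-1 mature green to post-mature green, 18 to 34 and 3 to 23 for the 2 interactions; the lone array left in a group was assumed to vary like the others. The replicate block changed no other count by over 1.5 times (55 or 56 calls at post-mature green across the scaling and block settings).

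Medians near 0 changed sign when a single array was left out: genotype at 24 hours ranged from -0.13 to 0.22, wild-type 24 hours to cotyledon from -0.1 to 0.29, and the last lec1-1 step from -0.54 to 0.08, with 0.06 when the dimmer post-mature green array was omitted. Uncalled genes did so too: at mature green psaB ranged from -0.37 to 0.26 over single arrays left out (0.01 without the second lec1-1 array) and was 0.03 with the lot covariate, psbM from -0.2 to 0.85 and petB from -0.01 to 0.42, and at post-mature green psaB from -0.07 to 0.27. The cause was not tested. Of the values of named genes under the alternatives, 889 kept their direction and side of the threshold, 91 lost the call, 10 gained it and 6 changed sign. The all-gene median of seedlings against post-mature green seed was -0.15, or -0.1 with quantile normalization. Choosing another probe set per gene was not possible, since each gene had 1.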
